A study of Solanum tuberosum with 12 samples.

Results

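Described here are the predicted potato miRNA sequences of 22 or 23 nt in the deposited list, apart from those the selection rule sets aside. From the deposited prediction list all entries of these lengths were taken, except PotatoMir1005658171, PotatoMir1005047020 and the miR6024 sequence PotatoMir1006187661. The rule also sets aside PotatoMir1003753189, PotatoMir1004453921 and sequences within 3 ungapped differences of PotatoMir1003902286 or PotatoMir1005868687, which removed no further sequence of 22 or 23 nt. This left 32 of the 324 loci of the list and 22 of its 222 distinct mature sequences. At 22 nt there were 15 distinct sequences at 22 loci, and at 23 nt there were 7 distinct sequences at 10 loci. The study removed predictions under 5 reads and reports 259 miRNAs, and 259 loci of the deposited list have at least 5 reads. By that filter, 7 sequences of the set at 10 loci, those under 5 reads, are outside the study's final miRNAs. The rule used length and identity, and it singles out PotatoMir1006187661 by its read number. It kept 3 sequences that the study named miR482, so the set is not limited to rare or unnamed sequences, and values are given with and without them where they decide the result.

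The small RNAs came from Solanum tuberosum group Andigena clone ADG573, a single clone propagated in vitro and kept under long days (LD) in a glasshouse before it was moved to cabinets at 20 °C. The 12 libraries comprised 3 biological replicates each of swollen stolon under short days (SD), stolon under SD, leaf under SD and leaf under LD. The labels give 8 days in the cabinets for every group, whereas the study's methods give later days for stolon. All libraries were pooled before prediction, so the list holds 1 read number per sequence, replicate error is unknown for every value, and tissues and day lengths were not compared.

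In plants, miRNAs are cut as a duplex of a mature and a star strand from a hairpin precursor by Dicer-like enzymes and loaded into Argonaute proteins, which use them to find complementary transcripts. The first base of the small RNA influences which Argonaute takes it up, and a U at this place favours AGO1, the main slicer of plant miRNA targets. miRNAs of 22 nt, and duplexes in which a bulge makes the mature strand longer than the star strand, are known in Arabidopsis to set off the production of secondary siRNAs from a target transcript. In the Solanaceae the best known 22 nt miRNAs, of the miR482 superfamily, are directed against transcripts of resistance proteins with a nucleotide binding site and leucine rich repeats.

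The 5 sequences with a homologue name in the study's tables are shown first, since they carried most of the reads. They are written as DNA, 5′ to 3′, with bases 2 to 8 (the seed) in capitals.
PotatoMir1005353123 (miR482): tCTTGCCTacaccgcccatgcc
PotatoMir1005353002 (miR482): tCTTGCCAataccgcccattcc
PotatoMir1006074505 (miR482): tTTCCAATtccacccattccta
PotatoMir1005851285 (miR6026): tTCTTGGCtagagttgtattgc
PotatoMir1005249035 (miR3627): tCGCAGGAgagatggcacttag

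The other 10 sequences of 22 nt, in order of their reads, had no homologue name in the study's tables. Those tables leave out predictions under 5 reads, so for the last 3 the lack of a name says nothing about homology. They are shown to make their lack of a shared seed visible.
PotatoMir1005536707: tGGTCGGCatgactcccgaggt
PotatoMir1005821911: tTCGTGAGacaaaaagaagcct
PotatoMir1005775808: tTCCAAAGctgcagaaatgagt
PotatoMir1005029620: tATGACAAacactgcaaaaact
PotatoMir1003705672: cCTTGTGAgtaagttgaatctc
PotatoMir1005188557: tCCATCTTcaatatcactttct
PotatoMir1002393927: aTAATTTGgaggaataggaacc
PotatoMir1002255975: aGTTAATGgtcaagaacatacc
PotatoMir1004796628: tAAGATGGgatatcacagggct
PotatoMir1006173362: tTTGTTGCaacagatgagtcat

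The 7 sequences of 23 nt, also without a homologue name there, were the following. The last 4 were under 5 reads, so their lack of a name likewise says nothing about homology.
PotatoMir1005125743: tCACCTTCagaattgtagatttc
PotatoMir1005676747: tTAGACACctcaactaagacttg
PotatoMir1005956957: tTGGGTTGgtttggtctcgggtt
PotatoMir1000080514: aAAACCATcgttaaaaaataatg
PotatoMir1005497229: tGCTCGGActcttcaaaattgtc
PotatoMir1005516338: tGGCATGTcggataaccgataca
PotatoMir1006226172: tTTTGGAGctccaacccaacacc

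No 2 of these 22 sequences had the same seed. The closest pair was PotatoMir1005353123 and PotatoMir1005353002, which differed at 3 bases, and no other sequence of the list lay within 3 ungapped differences of any of the 22 when each overhanging base of an alignment counted as a difference. PotatoMir1006226172 had the seed of 2 sequences of 24 nt in the list, PotatoMir1006225982 and PotatoMir1006226006, but differed from them at 9 and 13 of the 23 aligned bases.

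Read numbers were dominated by miR482. Counted once per distinct sequence, the 22 nt sequences had 24550 reads (2.57% of the 954147 reads of the list) and the 23 nt sequences had 39 reads (0.00409%). Of the 954147 reads, 741106 belonged to a single sequence of 21 nt, which lowers both shares. PotatoMir1005353123 was the most abundant at 15854 reads (95% Poisson interval 15608 to 16103). PotatoMir1005353002 had 4609 reads (4477 to 4744) and PotatoMir1006074505 had 3071 reads (2963 to 3182). These 3 sequences held 95.7% of the reads of all 22 sequences described. In the order of all 222 distinct sequences they stood at places 7, 9 and 15.

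Outside miR482 the 22 nt sequences formed a series that ended in single reads. PotatoMir1005536707 had 462 reads (421 to 506) and was placed at 7 loci, so its reads cannot be assigned to one of them. The miR6026 sequence PotatoMir1005851285 of a family known from Solanaceae had 259 reads (228 to 293). The miR3627 sequence PotatoMir1005249035 had 13 reads (6.92 to 22.2). Of the unnamed sequences, PotatoMir1005821911 had 118, PotatoMir1005775808 had 84, PotatoMir1005029620 had 35, PotatoMir1003705672 had 24, PotatoMir1005188557 had 12 and PotatoMir1002393927 had 5 reads. The intervals of PotatoMir1005821911 (97.7 to 141) and PotatoMir1005775808 (67 to 104) overlapped, and both lay above that of PotatoMir1005029620 (24.4 to 48.7). From PotatoMir1005029620 down, the interval of each sequence overlapped that of the next. The last 3 were under the 5 reads that the study's methods require, with 2 reads for PotatoMir1002255975 and 1 read each for PotatoMir1004796628 and PotatoMir1006173362.

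The 23 nt sequences were rare throughout. PotatoMir1005125743 had 16 reads (9.15 to 26), PotatoMir1005676747 had 12 (6.2 to 21) and PotatoMir1005956957 had 6 (2.2 to 13.1). The other 4 sequences, at 7 of the 10 loci, were under 5 reads, with 2 reads for PotatoMir1000080514 and 1 read each for PotatoMir1005497229, PotatoMir1005516338 and PotatoMir1006226172. For a sequence seen in 1 read the 95% Poisson bounds are 0.0253 and 5.57 reads, so the order of these sequences cannot be read from their reads. All these intervals cover counting error only and treat reads as independent. Amplified reads are not independent molecules, so the intervals may be too narrow.

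**Figure D1:**
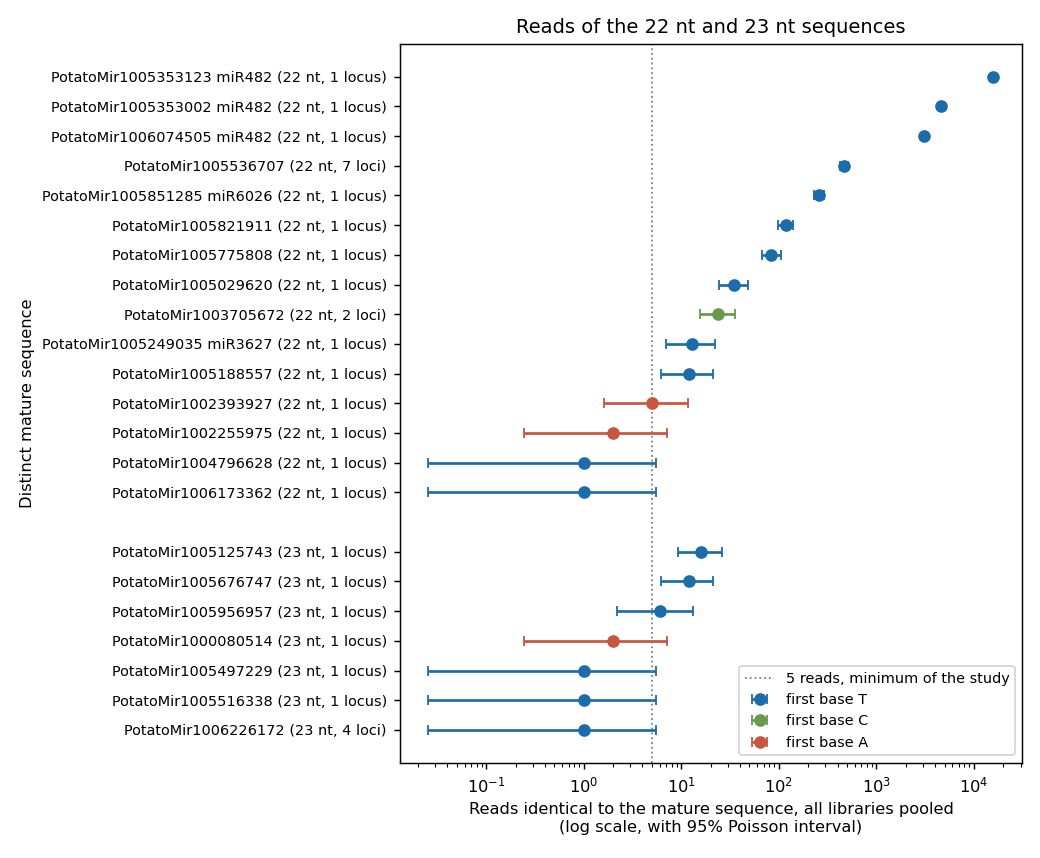
Reads identical to each distinct mature sequence over all libraries, on a log axis, with 95% Poisson intervals as bars and the first base as colour. The 22 nt sequences are above and the 23 nt sequences below. The 3 miR482 sequences lie at 3071 reads or more, no 23 nt sequence is above 16 reads, and 7 sequences are left of the dotted line at 5 reads.

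The median was 35 reads for the 15 sequences of 22 nt and 2 reads for the 7 sequences of 23 nt. For comparison, the median was 67 reads over 59 sequences of 21 nt, 11 reads over 121 sequences of 24 nt and 18 reads over the 200 sequences of the rest of the list. Without miR482 the 22 nt median was 18.5 reads. The share of sequences under 5 reads was 20.0% at 22 nt and 57.1% at 23 nt, against 22% in the rest of the list. No test was made over these sequences, and none of the shares and medians given here is shown to be particular to a length.

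A T as the first base, which is U in the RNA, was found in most sequences of both lengths. At 22 nt it was the case for 12 of 15 distinct sequences (80.0%, 95% Wilson interval 54.8 to 93.0%), while 2 started with A and 1 with C. At 23 nt it was the case for 6 of 7 (85.7%, 48.7 to 97.4%), and PotatoMir1000080514 started with A. Of the 200 other sequences of the list 76 started with T (38%, 31.6 to 44.9%) and 99 with A. The share of T was 60.0% among the 10 sequences of 20 nt and 57.6% among those of 21 nt. It was 24.8% among those of 24 nt, where 81 of 121 started with A. The 3 sequences of 22 nt outside the set all started with T. No sequence of 22 or 23 nt in the set started with G. All sequences over 24 reads started with T, and the 3 sequences with A had 5, 2 and 2 reads.

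Most 22 nt and 23 nt loci of the set carried the mature sequence on the 5′ arm of the precursor, while the 3 miR482 sequences lay on the 3′ arm. Of the 22 loci with a 22 nt sequence, 16 had the mature sequence on the 5′ arm (72.7%, 95% Wilson interval 51.8 to 86.8%) and 6 on the 3′ arm. Among the 6 were the 3 miR482 sequences, miR6026, PotatoMir1005821911 and PotatoMir1005188557, which together had 23923 reads, whereas the 9 sequences on the 5′ arm had 627 reads. Without miR482 the order turned, with 389 reads for the 3 sequences left on the 3′ arm. This turn rested on PotatoMir1005536707, which held 462 of the 627 reads on the 5′ arm. At 23 nt 7 of 10 loci had the mature sequence on the 5′ arm (70.0%), and all 3 sequences with at least 5 reads did. In the rest of the list the 5′ arm was used at 144 of 292 loci (49.3%). Since 7 of the 16 loci on the 5′ arm belonged to PotatoMir1005536707, the 22 nt share was 60.0% without it. By distinct sequence it was 60.0% as well. At 23 nt 3 of the 7 loci on the 5′ arm belonged to PotatoMir1006226172, and the share was 66.7% without it.

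The duplexes were read from the fold of each deposited precursor with RNAfold. The star sequence was cut to leave an overhang of 2 nt at the loop end of the duplex, and its other end was that of the deposited precursor. The length of the star sequence therefore reflects both bulges and the precursor end chosen by the authors. Star sequences are predictions from the fold, and their reads were not analysed here.

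At 22 nt the star sequence was shorter than the mature sequence at 9 of 22 loci (40.9%, 95% Wilson interval 23.3 to 61.3%), and it was 21 nt at each of these. At the other 13 loci both strands were 22 nt, and no star sequence was longer. All 9 loci with the shorter star also had more unpaired bases on the mature than on the star side of 1 bulge or loop. Counted by sequence, 8 of 15 had the shorter star (53.3%). At 23 nt it was shorter at 2 of 10 loci (20.0%, 5.67 to 51.0%), equal at 7 and longer at 1. Without the 7 loci of PotatoMir1005536707 the 22 nt share was 60.0%, and without the 4 loci of PotatoMir1006226172 the 23 nt share was 33.3%. In the rest of the list a shorter star was found at 43 of 290 loci (14.8%, 11.2 to 19.4%), with 7.0% of 100 loci at 21 nt, 15.2% of 158 loci at 24 nt and 34.8% of 23 loci at 20 nt. Of the 292 loci of the rest, 1 at which no star could be cut and 1 with a star of at least 40 nt were left out of these shares. Of the 3 sequences of 22 nt outside the set, PotatoMir1005658171 and PotatoMir1005047020 also had a star of 21 nt.

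**Figure D2:**
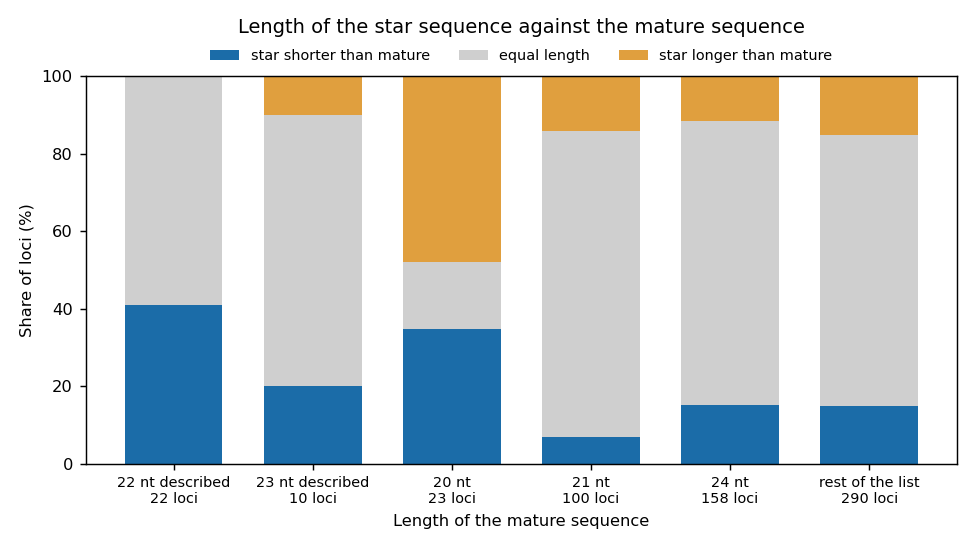
Share of loci (%) at which the star sequence read from the fold was shorter than, equal to or longer than the mature sequence, by length of the mature sequence. The blue part is 40.9% for the 22 nt and 20.0% for the 23 nt sequences described, against 7.0% for 21 nt, 15.2% for 24 nt and 14.8% for the rest of the list.

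Of the named sequences, all 3 miR482 sequences and miR3627 had the shorter star and miR6026 did not. The star sequences of miR482 are shown, wholly in lower case, to make the difference of 1 nt visible.
PotatoMir1005353123 star: cgtgagtggtggggtaagata
PotatoMir1005353002 star: agtgggtggtgtggtaagatt
PotatoMir1006074505 star: ggaattggtggattggaaagc
In each of these duplexes 1 mature base was bulged out, at position 9 of PotatoMir1005353123 and at position 8 of PotatoMir1005353002 and PotatoMir1006074505, counted from the 5′ end. Each had 2 unpaired mature bases in all. There were 4 G:U pairs in the duplexes of PotatoMir1005353123 and PotatoMir1005353002 and none in that of PotatoMir1006074505. For the other sequences with a star of 21 nt the single bulged base was at position 7 (PotatoMir1005188557), 10 (PotatoMir1002255975), 13 (miR3627, PotatoMir1005249035) and 19 (PotatoMir1003705672). The place of the bulge therefore differed among these sequences. PotatoMir1002393927 had an internal loop of 3 mature bases against 1 star base.

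Equal strands occurred with and without bulges. miR6026 had 4 unpaired mature bases and no asymmetric bulge, as did PotatoMir1005821911. PotatoMir1005029620 and PotatoMir1004796628 had 2 each and PotatoMir1006173362 had 1. PotatoMir1005775808 had 1 unpaired mature base and 1 bulged star base, with both strands of 22 nt. At 23 nt, PotatoMir1000080514, PotatoMir1005516338 and the plus strand locus of PotatoMir1006226172 paired at every mature base outside the overhang. A duplex of this kind was found at no 22 nt locus of the set and at 49 of the 291 loci of the rest at which a star sequence could be cut.

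**Figure D3:**
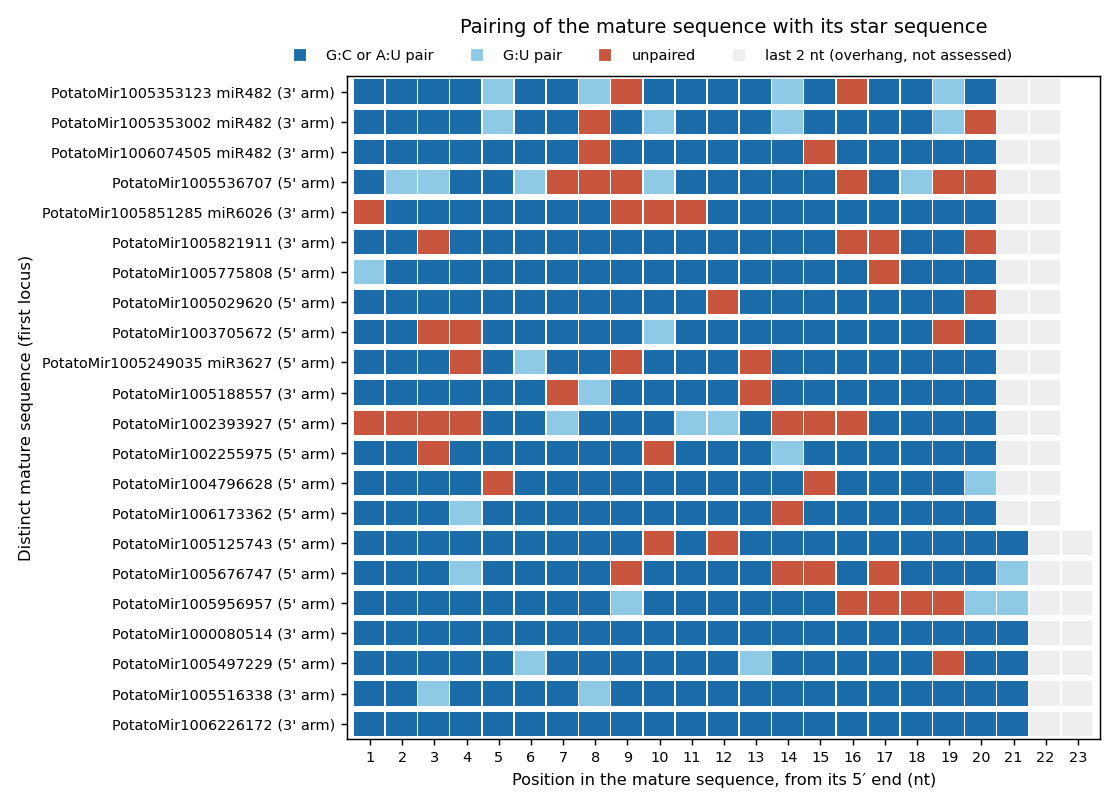
Pairing of each mature base with the star strand in the fold of the first locus of each sequence, from position 1 at the 5′ end, with the last 2 nt, the overhang, not assessed. The 15 sequences of 22 nt are above the 7 sequences of 23 nt. Unpaired bases of the miR482 sequences lie at position 8 or 9 and at 15, 16 or 20, and the last line and 2 others at 23 nt have no unpaired base.

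The ends of the duplex were compared as well, since the strand with the less stable 5′ end is usually the one kept by Argonaute. Among the first 4 bases of each strand, the mature strand had fewer G:C pairs than the star strand at 12 of 22 loci with 22 nt, the same number at 5 and more at 5. At 23 nt the numbers were 5, 1 and 4 of 10 loci. In the rest of the list the mature strand had fewer at 132 of 291 loci (45.4%), compared with 54.5% at 22 nt and 50% at 23 nt. All 7 loci of PotatoMir1005536707 and all 4 of PotatoMir1006226172 were among those with fewer, and without these sequences 5 of 15 loci at 22 nt and 1 of 6 at 23 nt were.

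The criteria of the study for plant miRNA duplexes were met by 14 of 22 loci with 22 nt (63.6%, 95% Wilson interval 43.0 to 80.3%) and by 7 of 10 with 23 nt (70.0%, 39.7 to 89.2%). These allow up to 4 mismatches and a single asymmetric bulge of up to 2 nt between strands on opposite arms. In the rest of the list 245 of 292 loci met them (83.9%). With G:U pairs allowed, the loci that missed them belonged to 3 sequences. They were all 7 loci of PotatoMir1005536707, the locus of PotatoMir1002393927 with 7 unpaired mature bases, and 3 of the 4 loci of PotatoMir1006226172. Without PotatoMir1005536707 the 22 nt share was 93.3%, and without PotatoMir1006226172 the 23 nt share was 100%. The authors had selected all loci from their own folds with these criteria, so the shares describe this refold and do not test the hairpins.

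Of the miR482 sequences, 2 lay in a cluster. On the minus strand of superscaffold PGSC0003DMB000000227 the precursor of PotatoMir1005353123 spans 531333 to 531402 and that of PotatoMir1005353002 spans 542551 to 542621. Between them lies the precursor of PotatoMir1005658171, the miR482 sequence outside the set with 16170 reads, from 538039 to 538120. The 3 loci are the only ones of the list on this superscaffold, lie on the same strand and span 11289 bases. PotatoMir1006074505 is on the plus strand of superscaffold PGSC0003DMB000000062 from 1458173 to 1458236. Coordinates are those of the authors' DM potato superscaffolds, and the gene annotation at these places was not used here. The precursors are given with the mature sequence in capitals to show that all 3 carry it at the 3′ end.
PotatoMir1005353123 precursor: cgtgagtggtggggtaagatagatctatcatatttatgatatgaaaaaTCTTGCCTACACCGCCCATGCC
PotatoMir1005353002 precursor: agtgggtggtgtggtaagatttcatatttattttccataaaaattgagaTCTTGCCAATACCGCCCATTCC
PotatoMir1006074505 precursor: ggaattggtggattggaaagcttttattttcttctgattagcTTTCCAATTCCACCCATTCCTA

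The 2 clustered sequences of the set shared a register, but similarity among the miR482 sequences did not follow the cluster throughout. From PotatoMir1005353002 to PotatoMir1005353123 the differences were A8T, T10C and T20G, with positions counted from the 5′ end of the first. PotatoMir1006074505 began 2 bases further along, and over the 20 bases shared in this register it differed from PotatoMir1005353002 by G5T, A11T and G14A. PotatoMir1005658171 had the register of PotatoMir1006074505 and differed from PotatoMir1006074505 at 4 of 22 bases, although it lies in the cluster. From the clustered PotatoMir1005353002 and PotatoMir1005353123 it differed at 4 and 6 of the 20 shared bases. The precursors of the 3 sequences were 64 to 71 nt long, with 21 to 28 nt between mature and star, and had minimum free energies of -29.60, -35.00 and -30.50 kcal/mol for PotatoMir1005353123, PotatoMir1005353002 and PotatoMir1006074505.

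miR6026 had a longer precursor and a partial match to a sequence outside the set. PotatoMir1005851285 lies on the plus strand of superscaffold PGSC0003DMB000000172 with a precursor of 204 nt from 711510 to 711713, the longest of the set, and 160 nt between star and mature. In the best ungapped alignment it matched the miR6024 sequence PotatoMir1006187661 at 16 of 21 bases with a shift of 1 base. A 24 nt sequence of the list, PotatoMir1000876644 with 108 reads, had its precursor on the same strand 2278 bases away. The miR3627 sequence PotatoMir1005249035 lies on the minus strand of superscaffold PGSC0003DMB000000004 with a precursor of 83 nt from 2388116 to 2388198.

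Transcript sites that the study's stricter prediction lists for these miRNAs were paired again here with the deposited sequences. For each miRNA the best paired site over its full length was taken, so that close pairing is a result of the choice. Sites are written as RNA, 5′ to 3′, with mismatched bases in capitals.
PotatoMir1005353002 site in PGSC0003DMT400025436 (annotated RGC1): gggaugggugguauuggcaaga
PotatoMir1005353123 site in PGSC0003DMT400030027 (annotated HJTR2GH1 protein): gguaugggcgguUuaggcaaga
PotatoMir1006074505 site in PGSC0003DMT400015396 (annotated Nematode resistance): ugggaaugAguggaguugggaa
The site for PotatoMir1005353002 had no mismatch and 2 G:U pairs. The site for PotatoMir1005353123 had 1 mismatch, opposite its position 10, and 1 G:U pair. The site for PotatoMir1006074505 had 1 mismatch, opposite its position 14, and 3 G:U pairs. RGC1 is the name of a resistance gene family, and the annotations are those of the study's tables. Sites over the full length were found for 11 of the 22 sequences. The study predicted targets for its final 259 miRNAs, which leave out predictions under 5 reads. The 7 sequences of the set under 5 reads were thus outside that prediction. All 11 sequences with a site were among the 15 with at least 5 reads. The site of miR6026 (PotatoMir1005851285) had 2 mismatches and lay in a transcript annotated as Zinc finger protein. Of the unnamed sequences, PotatoMir1005536707 and PotatoMir1005956957 had a site without a mismatch, in transcripts annotated as Integrase and Fatty acyl-CoA reductase 2, and PotatoMir1002393927 had 1 mismatch in a gene of unknown function. PotatoMir1005676747 (RelA-SpoT RSH1) and PotatoMir1005775808 (BRASSINOSTEROID INSENSITIVE 1-associated receptor kinase 1) had 2 mismatches each. PotatoMir1005125743 (SNF5) and PotatoMir1005188557 (TCP domain class transcription factor) had 3 each.

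The sequence of the set with the most loci had the shortest precursors. PotatoMir1005536707 was found on 7 superscaffolds, each time with a precursor of 48 nt in which 4 nt separate the strands. The 7 loci carried 4 distinct precursors, which are shown with the mature sequence in capitals because they differ only outside it.
PotatoMir1005536707 precursor at 3 loci: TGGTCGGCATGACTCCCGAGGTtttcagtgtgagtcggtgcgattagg
PotatoMir1005536707 precursor at 2 loci: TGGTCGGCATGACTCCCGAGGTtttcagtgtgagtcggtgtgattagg
PotatoMir1005536707 precursor at 1 locus: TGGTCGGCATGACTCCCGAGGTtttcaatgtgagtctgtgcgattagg
PotatoMir1005536707 precursor at 1 locus: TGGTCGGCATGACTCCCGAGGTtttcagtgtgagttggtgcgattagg
Relative to the first, the second had C41T, the third had G28A and G37T, and the fourth had C36T, with positions counted from the 5′ end of the precursor. All the differences lie in the star strand. The minimum free energy was -13.70 kcal/mol for the first and -12.00, -12.90 and -11.10 kcal/mol for the others. The second had 6 unpaired mature bases and no asymmetric bulge, and the other precursors had 4 or 5 unpaired mature bases and 2 asymmetric bulges. Folded at 20 °C, all 4 precursors had 2 asymmetric bulges, so this contrast depended on the fold temperature. The plus strand loci start at 1226289 on superscaffold PGSC0003DMB000000027, 1380803 on PGSC0003DMB000000095 and 745495 on PGSC0003DMB000000296. The minus strand loci start at 258869 on PGSC0003DMB000000339, 440995 on PGSC0003DMB000000344, 121387 on PGSC0003DMB000000474 and 146094 on PGSC0003DMB000000639. No 2 loci were therefore on 1 superscaffold. Precursors of at most 50 nt were found at 13 of the 292 loci of the rest of the list. A site without a mismatch and with 1 G:U pair is listed in transcript PGSC0003DMT400077861, which the study's table annotates as Integrase, a protein of mobile elements.
PotatoMir1005536707 site in PGSC0003DMT400077861: accucgggagucaugucgacca

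PotatoMir1003705672, the only sequence of the set that starts with C, was placed at 2 loci with identical precursors of 99 nt. They lie on the plus strands of superscaffolds PGSC0003DMB000000249 (882832 to 882930) and PGSC0003DMB000000480 (46701 to 46799). Both folded with -50.10 kcal/mol. The other 13 sequences of 22 nt had 1 locus each.

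Among the unnamed sequences of 22 nt with 1 locus, precursors ranged widely in length and energy. PotatoMir1005029620 had a precursor of 172 nt on the minus strand of superscaffold PGSC0003DMB000000148, from 1256819 to 1256990, with -87.20 kcal/mol. PotatoMir1002255975 was on the same strand of that superscaffold, from 977001 to 977161, with 161 nt and -76.50 kcal/mol. PotatoMir1004796628 had 124 nt on the minus strand of PGSC0003DMB000000106, from 657771 to 657894, with -64.10 kcal/mol. These 3 precursors had -47.5 to -51.7 kcal/mol per 100 nt. PotatoMir1005821911, the second most abundant unnamed sequence, had a weak precursor of 79 nt with -20.80 kcal/mol, or -26.3 kcal/mol per 100 nt, on the plus strand of PGSC0003DMB000000271 from 287594 to 287672. PotatoMir1005775808 had 70 nt and -36.20 kcal/mol on the plus strand of PGSC0003DMB000000060, from 1423417 to 1423486. PotatoMir1005188557 had 110 nt and -42.90 kcal/mol on the minus strand of PGSC0003DMB000000210, from 94075 to 94184. PotatoMir1002393927 lies on the minus strand of PGSC0003DMB000000238, from 8714 to 8787, and PotatoMir1006173362 on the plus strand of PGSC0003DMB000000040, from 264628 to 264685. Of these 8 sequences the one with the most reads, PotatoMir1005821911, had the weakest fold per base. PotatoMir1002393927, with only 5 reads, was nearly as weak at -26.6 kcal/mol per 100 nt, so fold strength did not follow reads.

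At 23 nt the only sequence with several loci was one with a single read. PotatoMir1006226172 was placed 4 times within superscaffold PGSC0003DMB000000457, with precursors from 274045 to 274180 on the plus strand and from 274214 to 274295, 274214 to 274356 and 274336 to 274467 on the minus strand. The first minus strand precursor lies wholly inside the next, which overlaps the last by 21 bases. Its bases hold a stretch of 12 nt that is its own reverse complement, in capitals here.
PotatoMir1006226172 with the self-complementary stretch: ttTTGGAGCTCCAAcccaacacc
On the minus strand the star strand holds most of the same letters as the mature strand, as the shortest of these precursors shows with the mature sequence in capitals.
PotatoMir1006226172 precursor, 274214 to 274295: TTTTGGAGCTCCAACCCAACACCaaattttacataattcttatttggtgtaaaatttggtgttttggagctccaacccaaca
There the mature strand had 5 unpaired bases and a bulge of 3 nt, which was the case at all 3 minus strand loci. On the plus strand the precursor of 136 nt had no unpaired mature base and folded with -119.00 kcal/mol, or -87.5 kcal/mol per 100 nt, the lowest value of the list. A self-complementary stretch of at least 10 nt was found in 2 of the 22 sequences, the other being PotatoMir1006173362, against 3 of the 200 in the rest of the list.

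The rare PotatoMir1005497229 and PotatoMir1000080514, also of 23 nt, shared precursor bases with other entries. The precursor of PotatoMir1005497229, with 1 read, had at least 18 bases in a row in common with those of PotatoMir1002606682 (24 nt, 5 reads) and PotatoMir1002922473 (21 nt, 7 reads). Their mature sequences overlapped it with 1 mismatch over 20 bases and none over 17 bases, each starting 4 bases earlier.
PotatoMir1005497229: tGCTCGGActcttcaaaattgtc
PotatoMir1002606682: aTATTGCTcggactcttcaaaaat
PotatoMir1002922473: aTGCTGCTcggactcttcaaa
The precursor of PotatoMir1000080514, with 2 reads, shared such a stretch with that of PotatoMir1005315452 (24 nt, 2 reads). No precursor of a 22 nt sequence of the set shared 18 bases with an entry of another sequence.

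Precursors were shorter and less stable per base at 22 nt than at 23 nt in the whole set. At 22 nt they had a median length of 70.5 nt (48 to 204) and a median of -37.3 kcal/mol per 100 nt. At 23 nt the median length was 132 nt (57 to 199) and the median energy was -50.2 kcal/mol per 100 nt. The rest of the list had 86.5 nt and -42.7 kcal/mol per 100 nt. These orders depended on single sequences and on rare ones. Without PotatoMir1005536707 the 22 nt medians were 83.0 nt and -47.7 kcal/mol per 100 nt, and the 23 nt loci with at least 5 reads had a median length of 58.0 nt.

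**Figure D4:**
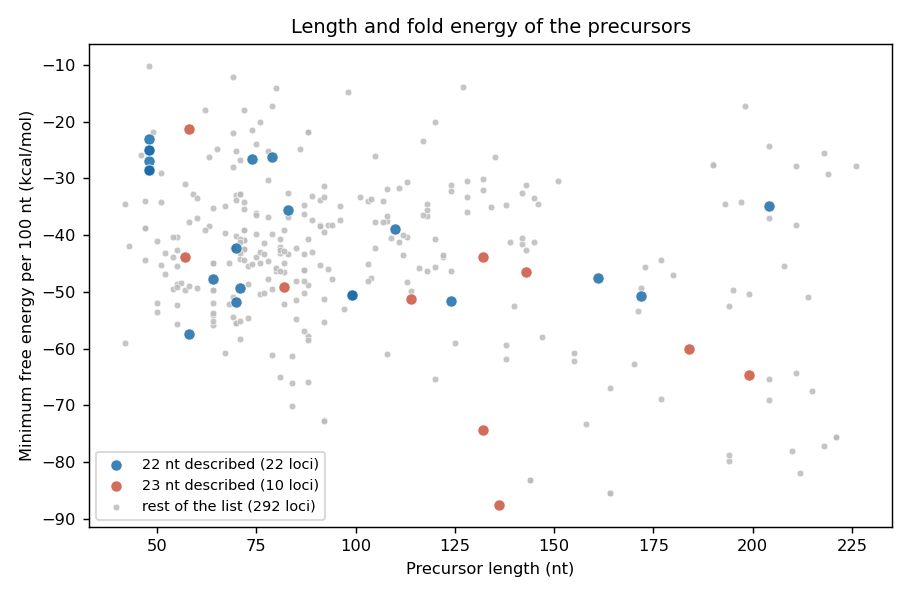
Precursor length (nt) against minimum free energy per 100 nt (kcal/mol) for each locus, with 22 nt in blue, 23 nt in red and the rest of the list in grey. The 7 loci of PotatoMir1005536707 lie together at 48 nt between -28.5 and -23.1 kcal/mol per 100 nt, and the plus strand locus of PotatoMir1006226172 is the lowest point at -87.5.

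The 3 sequences of 23 nt with at least 5 reads all started with T and lay on the 5′ arm, and PotatoMir1005676747 and PotatoMir1005956957 had precursors of nearly the same length. PotatoMir1005125743 had a precursor of 132 nt on the minus strand of superscaffold PGSC0003DMB000000326, from 677277 to 677408, a star of 23 nt and 2 unpaired mature bases. PotatoMir1005676747 had a precursor of 58 nt that folded with -12.40 kcal/mol, or -21.4 kcal/mol per 100 nt, the weakest of the set, and a star of 22 nt with 1 mature base bulged out at position 9. PotatoMir1005956957 had a precursor of 57 nt with -25.00 kcal/mol, a star of 22 nt and 4 mature bases unpaired opposite 3 star bases. PotatoMir1005676747 lies on the minus strand of PGSC0003DMB000000487, from 223717 to 223774, and PotatoMir1005956957 on the plus strand of PGSC0003DMB000000251, from 540459 to 540515. Of the rarer sequences with 1 locus, PotatoMir1000080514 lies on the plus strand of PGSC0003DMB000000294, from 610610 to 610808. PotatoMir1005497229 lies on the minus strand of PGSC0003DMB000000412, from 223539 to 223652, and PotatoMir1005516338 on that of PGSC0003DMB000000528, from 279547 to 279730. GC content of the mature sequences ranged between 31.8 and 63.6% at 22 nt and between 21.7 and 52.2% at 23 nt, with medians of 40.9% and 43.5%, against 40.8% in the rest of the list.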

How the data were processed

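Small RNAs of 12 libraries were sequenced, and the 1 deposited table was used. The authors trimmed reads with Cutadapt (version 1.1 in the submitters' processing notes), removed other RNA classes with cross_match, aligned reads without mismatches to the DM superscaffolds with Bowtie, folded windows with RNAfold and predicted miRNAs with miRDeep-P; other versions are not given in the sources used here. The deposited read numbers are whole, pooled over libraries, not normalized and written in the sequence identifiers. Library depth is unknown.

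Precursors were folded again with RNAfold (ViennaRNA 2.7.2) at 37 °C, or at 20 °C or without dangling ends as alternatives. The star ran from a 2 nt overhang at the loop to the far end of the deposited precursor, and an unpaired base at the cut was replaced by its closest paired neighbour, up to 5 nt away. Other alternatives were minimums of 5 and 10 reads, G:U pairs as mismatches and other counting units. Intervals are 95% Wilson (shares) and Poisson (reads). Python 3.11.15 and SciPy 1.17.1 were used, and the star cut was tested on simulated hairpins. Members and lists were chosen with earlier results of these data known. Every sequence of the set may be named. Homologue names and target sites came from the study's tables, without their values. No test between libraries or over the set was made.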

Additional observations from a re-analysis of the deposited data

How the results depend on the processing

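No paired analysis was possible because the list holds no values of single libraries. Fold temperature and dangling ends left the star sequences at all 32 loci as they were, but at 20 °C the bulges of PotatoMir1005536707 changed at 4 of its 7 loci. At 22 nt, the share starting with T was 99.9% by reads, near the 98.8% by reads in the rest of the list. The share meeting the criteria was 93.3% without PotatoMir1005536707 (an alternative added after the data were seen). The median was 101 reads with at least 5 reads and 18.5 without miR482. At 23 nt, at least 5 reads left 3 loci of 3 sequences and at least 10 reads left 2 loci of 2 sequences. The share starting with T was 100% with both minimums. With at least 5 reads the share on the 5′ arm was 100%, that with a shorter star 66.7%, that meeting the criteria 100% (also without PotatoMir1006226172, added likewise), the median 12 reads and the median precursor length 58.0 nt. These shifts come from counting fewer sequences or weighting by reads. Of 67 values under alternatives, the other 51 stayed inside the interval of the main share or within 1.5 times the main number.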
